A study of Mus musculus with 6 samples.

Results

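Sgk1, Plk2, Plk3, Pim1, Pim2, Pim3, Trib1 and Trib2 encode quickly regulated serine/threonine kinases and kinase-like proteins. They were taken by symbol from the deposited gene count table, which has 37411 gene rows, and all 8 were found. All 8 also passed the filter on low counts, which left 16233 genes. RNA had been sequenced from primary hippocampal neuron cultures of CD-1 IGS mice, prepared from P0 pups and kept for 16 days in vitro. Cultures had received 50 µM forskolin or the same volume of its solvent DMSO for 30 min. Forskolin, a diterpene from a plant root, switches on adenylyl cyclase, the enzyme that makes cyclic AMP (cAMP). Libraries 1, 2 and 3 were the DMSO group and libraries 4, 5 and 6 the forskolin group; no genetic change is named. The labels do not say whether the 3 libraries of a group came from separate cultures or litters, so p-values measure the spread between these libraries, which may be technical.

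These genes are grouped because many of their transcripts are short-lived and can be raised quickly by growth factors, hormones or synaptic activity, which ties kinase activity to transcription. SGK1 is a relative of AKT that is activated through PDK1 and mTORC2, regulates ion channels and transporters, and is a classic glucocorticoid target. PLK2 and PLK3 are polo-like kinases; PLK2 is known in neurons for weakening synapses after prolonged activity by phosphorylating spine proteins. PIM kinases have no regulatory domain and are active once made, so that their amount is set largely by transcription, often downstream of JAK and STAT signalling. TRIB proteins are pseudokinases that bring the ubiquitin ligase COP1 to its substrates, among them C/EBP transcription factors.

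RefSeq promoter sequences (GRCm38.p6) of 3 of the genes are shown because they hold the cAMP response element (CRE) or part of it. The CRE is the DNA motif bound by CREB. It was present in full in Plk2, and only as its short core in Plk3 and Sgk1. Windows of 300 bases, 250 before and 50 after each annotated start, were given for 7 of the 8 genes; Trib1 had none in the table. They were searched on both strands for the full CRE, TGACGTCA, for its core, TGACG, which lies inside the full CRE in both orientations, and for the CArG box, bound by serum response factor. Capitals mark the CRE or its core, and each stretch runs 5′ to 3′ on the gene's strand.
Plk2, chr13:110394944-110395043, plus strand, from base -100 to base -1: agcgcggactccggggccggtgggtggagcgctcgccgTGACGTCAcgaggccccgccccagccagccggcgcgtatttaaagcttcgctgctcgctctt
Plk3, chr4:117133964-117134113, minus strand, from base -150 to base -1: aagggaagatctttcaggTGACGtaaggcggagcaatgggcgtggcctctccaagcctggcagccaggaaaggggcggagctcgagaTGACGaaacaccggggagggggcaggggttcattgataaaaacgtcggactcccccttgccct
Sgk1, second of 6 windows, chr10:21978422-21978461, plus strand, from base -250 to base -211: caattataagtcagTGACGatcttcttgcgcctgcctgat

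Plk2 was the only one of the 7 genes whose window held a full CRE, with its first base at -62, and a further core lay at 22 bases past the start. Plk3 held 2 cores, at -132 and -63, and no full CRE. Sgk1 held 1 core, at -236 of the second window, and none in the other windows. Pim1 (2 windows), Pim2, Pim3 and Trib2 (1 window each) held neither, and no window of the 7 genes held a CArG box. For comparison, 1.79% of the 32851 windows in the table held a full CRE, 20.8% a core and 1.63% a CArG box. A match of letters is a description of the sequence and does not show a bound site.

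None of the 8 genes passed the main test for a change with forskolin. By edgeR's quasi-likelihood test with Benjamini-Hochberg adjustment over all 16233 genes at 0.05, 0 of 8 were called higher, where 0.172% of tested genes were (28), and 0 of 8 lower, where 1.34% were (217). At an unadjusted p under 0.05 there was 1, Pim1, which was higher; 10.6% of tested genes lay past that level on the higher side and 11.7% on the lower. DESeq2 on the same libraries also called 0 of the 8, where it called 4.9% of tested genes higher and 6.03% lower. No gene of the 8 had forskolin libraries that all lay above, or all below, the DMSO libraries, a pattern found in 10.3% (above) and 16.2% (below) of tested genes. Their median log2 fold change was 0.14, beside 0.02 over all tested genes. Other settings gave other counts. On the same 6 libraries, limma with library quality weights called 3 of the 8 (Pim1 higher, Pim2 and Trib2 lower), where it called 21% of tested genes higher and 20.9% lower. With each library's trend on GC content removed, 4 of the 8 had all forskolin libraries above, where 7.7% of tested genes did. The margin was narrow for Sgk1 (52.6 against 52.5 CPM), Pim1 (1.88 against 1.87) and Trib1 (21.4 against 21.3), and wider only for Pim3.

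Known cAMP response genes were measured in the same libraries. The transcription factor gene Fos had 186, 109 and 101 CPM (counts relative to TMM-adjusted library totals) with DMSO and 831, 902 and 448 CPM with forskolin, with a log2 fold change of 2.46 ± 0.36 (SE; edgeR adjusted p = 0.0375). Fosb, of the same gene family, rose as well (log2 fold change 3.38, edgeR adjusted p = 0.0402). The nuclear receptor gene Nr4a1 had 37.6, 19.3 and 16.6 CPM with DMSO and 137, 138 and 61.6 CPM with forskolin, without passing the test (log2 fold change 2.20, edgeR adjusted p = 0.0652). Of 9 cAMP and activity response genes, 2 were called higher and 0 lower. These calls rest on the setting: edgeR gave an adjusted p of 0.161 for both Fos and Fosb with the GC trend removed, 0.0503 for Fosb with upper-quartile factors, and, with 1 library other than 6 left out, 0.131 to 0.299 for Fos and 0.0852 to 0.288 for Fosb. Their log2 fold changes stayed at 2.29 or more for Fos and 3.06 or more for Fosb in those settings. Without library 6 both passed (edgeR adjusted p = 0.00309 and 0.00557), and with library 6 as the only forskolin library neither did, with log2 fold changes of 1.80 for Fos (edgeR adjusted p = 0.0804) and 2.97 for Fosb (edgeR adjusted p = 0.104).

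The libraries differed in depth, in mitochondrial RNA and in cell markers. Total counts ran from 28342764 to 47548379 per library. Mitochondrial ribosomal RNA took 14.0 to 23.7% of counts with DMSO and 26.9 to 33.3% with forskolin, so that this share separated the groups in every library. With mitochondrial genes left out, edgeR called 0 of the 8 genes, where 212 of 16119 tested genes were called (29 higher, 183 lower). Each of the 8 kept its direction, with a log2 fold change of 1.27 for Pim1 and 0.19 for Sgk1. The part of this share in the values below was not otherwise tested. The summed level of 12 microglia markers was 23.0 to 35.3 CPM in the DMSO libraries, 227 and 377 CPM in libraries 4 and 5, and 25.1 CPM in library 6. Of these markers 12, 11 and 2 lay above every DMSO library in libraries 4, 5 and 6. The 12 neuron markers summed to 4745 to 6009 CPM with DMSO, 3517 and 3762 CPM in libraries 4 and 5, and 5608 CPM in library 6. The sum hides unequal changes: 9, 8 and 6 of the 12 neuron markers lay below every DMSO library in libraries 4, 5 and 6, and 4 lay above every DMSO library in library 6. Their median log2 fold change was -0.45, 6 were lower at an unadjusted p under 0.05, and 1, Rbfox3, was called lower by edgeR (adjusted p = 0.0392), with 47.2 CPM in library 6 against 69.2 to 84.5 CPM with DMSO. The 10 astrocyte markers summed to 6978 to 8583 CPM in all libraries, so that neuron and astrocyte transcripts were both abundant. The 12 markers of the oligodendrocyte lineage summed to 823 to 914 CPM with DMSO and to 1100, 1595 and 647 CPM in libraries 4, 5 and 6. The 8 endothelial and mural markers summed to 40.9 to 100.4 CPM with DMSO and to 75.2, 59.3 and 37.8 CPM in the forskolin libraries. No marker of these lists was at 0 in every library. In bulk RNA, fewer cells of a type and less RNA per cell cannot be told apart.

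**Figure D1:**
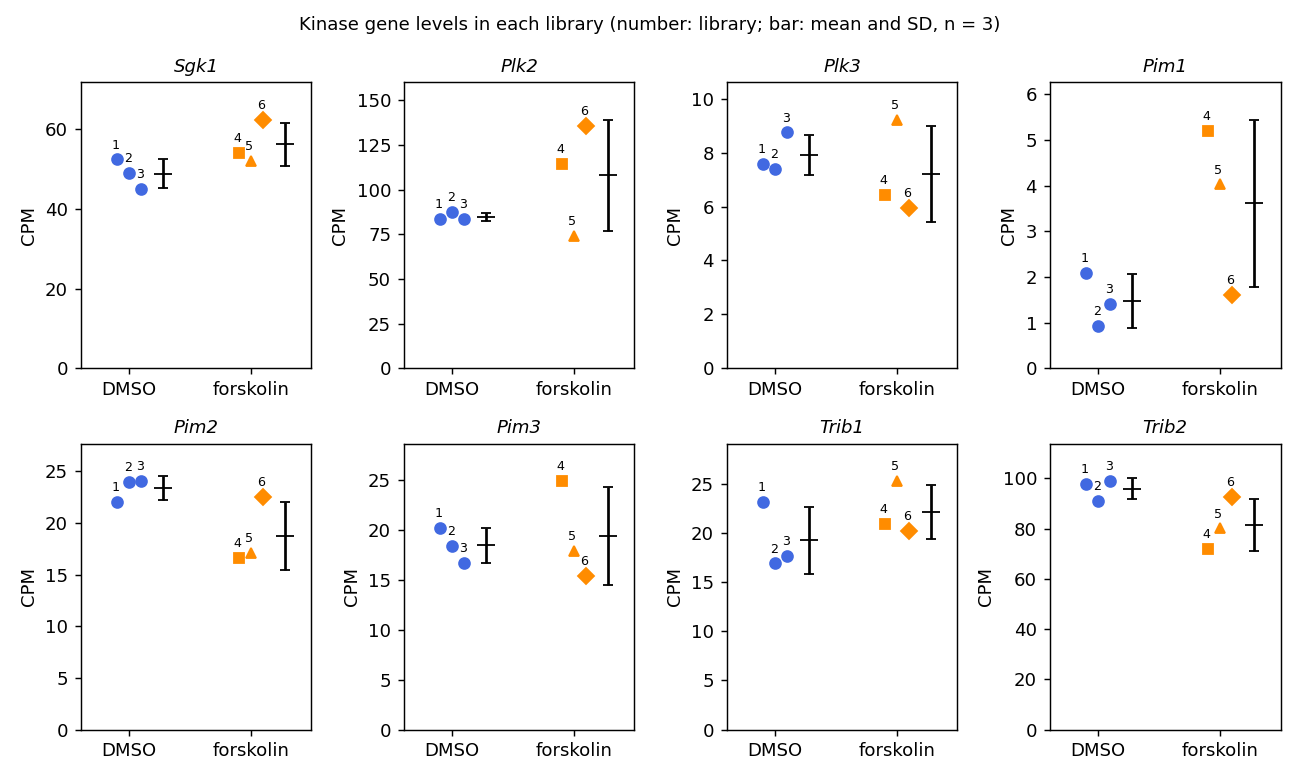
Each panel plots 1 gene's level in CPM (y axis from 0) in the 3 DMSO and 3 forskolin libraries, numbered 1 to 6, with the mean and SD of each group (n = 3) as a bar. The groups overlap in every panel; Pim1, Pim2 and Trib2 have libraries 4 and 5 on one side and library 6 among the DMSO values, and Plk2 has library 5 below the DMSO values.

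The 8 genes spanned a wide range of levels, compared here per kilobase of the longest annotated transcript (GENCODE M21), since longer transcripts give more counts. In the DMSO libraries Plk2 was highest at 30.3 ± 0.812 CPM per kilobase (SD, n = 3), followed by Trib2 at 22.8 ± 1.04, Sgk1 at 15.8 ± 1.19 and Pim2 at 11.4 ± 0.568. Lower down came Pim3 at 7.60 ± 0.719, Trib1 at 4.44 ± 0.782, Plk3 at 3.15 ± 0.294 and Pim1 at 0.545 ± 0.219 CPM per kilobase. In the DMSO libraries no neighbours in this order overlapped. With forskolin the order by mean was the same, but 2 neighbouring pairs overlapped: Trib2, at 17.2 to 22.0, with Sgk1, at 16.9 to 20.2, and Pim2, at 8.11 to 11.0, with Pim3, at 6.35 to 10.3 CPM per kilobase. Within each of the PLK, PIM and TRIB families the members thus differed in level, Plk2 lying far above Plk3, and Pim2 and Pim3 far above Pim1.

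**Figure D2:**
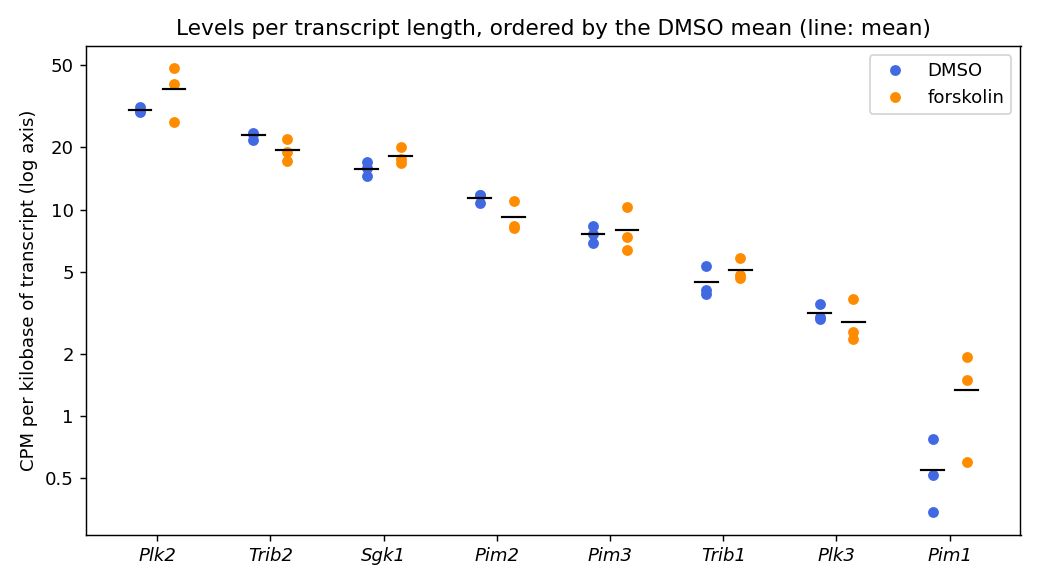
Points are single libraries and short lines group means (n = 3), in CPM per kilobase of the longest annotated transcript on a log axis, with genes ordered by the DMSO mean. Plk2, at 30.3 CPM per kilobase with DMSO, stands at the top and Pim1, at 0.545, at the bottom in both groups.

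Sgk1 lies on chromosome 10 (21882184 to 21999903, plus strand, GRCm38, GENCODE M21). Its level was 52.5, 49.1 and 45.1 CPM in libraries 1, 2 and 3 (DMSO), and 54.2, 52.2 and 62.5 CPM in libraries 4, 5 and 6 (forskolin). Libraries 4 and 6 lay above every DMSO library, and library 5 fell just short of library 1. The means were 48.9 ± 3.69 and 56.3 ± 5.45 CPM (SD, n = 3), and the log2 fold change was 0.20 ± 0.12 (SE; edgeR adjusted p = 0.336). Its 95% interval ran from -0.07 to 0.48, which allows a level up to 1.39-fold higher. Sgk1 varied little within either group, with a coefficient of variation of 7.54% with DMSO and 9.69% with forskolin.

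Genes around SGK1 were described from a list of 13, with its activators, substrates and the receptors that control it. None was called higher or lower. At an unadjusted p under 0.05 there were 2 higher and 1 lower, and the median log2 fold change was -0.13. Rictor, the defining subunit of mTORC2, had the smallest p of the list, with 46.9, 41.0 and 54.0 CPM with DMSO and 60.7, 63.8 and 63.3 CPM with forskolin (log2 fold change 0.40, edgeR adjusted p = 0.149). Of 8 glucocorticoid target genes, the class to which Sgk1 belongs, none was called, and the median log2 fold change was -0.05. In that class the smallest p was that of Zbtb16, a zinc finger transcription factor, with 61.4, 59.7 and 66.6 CPM with DMSO and 42.1, 39.9 and 54.7 CPM with forskolin (log2 fold change -0.46, edgeR adjusted p = 0.154).

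Plk2, on chromosome 13 (110395046 to 110400844, plus strand), is the gene with the full CRE shown above. Its level was 83.5, 87.5 and 83.6 CPM with DMSO, and 114, 74.2 and 136 CPM with forskolin. Libraries 4 and 6 were above all DMSO libraries, while library 5 was below all of them. The coefficient of variation was 2.68% among the DMSO libraries and 28.9% among the forskolin libraries. The means were 84.9 ± 2.27 and 108 ± 31.2 CPM (SD, n = 3), and the log2 fold change was 0.35 ± 0.21 (SE; edgeR adjusted p = 0.367; 95% interval -0.16 to 0.86). With library 6 as the only forskolin library it was 0.71 ± 0.12 (edgeR adjusted p = 0.0709), which assumes that a lone library varies like the DMSO group; without library 6 it was 0.13 ± 0.18 (edgeR adjusted p = 0.582). The microglia markers summed to 227, 377 and 25.1 CPM in libraries 4, 5 and 6, where Plk2 was high, low and high; their part in the Plk2 values was not tested.

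Plk3, on chromosome 4 (117128655 to 117133963, minus strand), had 7.59, 7.38 and 8.75 CPM with DMSO and 6.44, 9.23 and 5.94 CPM with forskolin. Libraries 4 and 6 were below all DMSO libraries and library 5 above all of them, which is the reverse of Plk2 in each forskolin library. The log2 fold change of Plk3 was -0.14 ± 0.22 (SE; edgeR adjusted p = 0.739; 95% interval -0.66 to 0.39). Plk3 overlaps Tctex1d4 on the opposite strand by 84 bases; whether the counting used strand is not given in the sources used here. Tctex1d4 had 6.37, 5.38 and 2.83 CPM with DMSO and 12.3, 9.20 and 1.76 CPM with forskolin. Its part in the Plk3 values was not tested.

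Of 7 substrates and partners of PLK2 at synapses, none was called. The median log2 fold change was -0.30, and 6 of 7 were negative, where 48.2% of all tested genes were. In the same comparison 9 of the 12 neuron markers were negative, with a median of -0.45; their part in the values of this list was not tested.

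Pim1, on chromosome 17 (29490753 to 29496112, plus strand), showed the largest fitted fold change of the 8. The DMSO libraries held 67, 28 and 50 counts, and the forskolin libraries 245, 137 and 54. In CPM these were 2.09, 0.919 and 1.40 with DMSO, and 5.20, 4.03 and 1.61 with forskolin. Libraries 4 and 5 lay above all DMSO libraries, whereas library 6 lay below library 1. The means were 1.47 ± 0.590 and 3.61 ± 1.83 CPM (SD, n = 3), and the log2 fold change was 1.30 ± 0.50 (SE; edgeR unadjusted p = 0.0363, adjusted p = 0.198).

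With few counts, Pim1 has wide counting intervals. The exact Poisson 95% interval of Pim1 was 3.38 to 4.76 CPM in library 5 and 1.21 to 2.10 CPM in library 6; such intervals cover counting error only, and not the spread between libraries. Without library 6 the log2 fold change was 1.63 ± 0.35 (SE; edgeR adjusted p = 0.0168), and with library 6 as the only forskolin library it was 0.17 ± 0.51 (edgeR adjusted p = 0.884). The microglia markers summed to 227, 377 and 25.1 CPM in libraries 4, 5 and 6, high in the same 2 libraries; their part in the Pim1 values was not tested. An antisense gene that overlaps Pim1 by 1173 bases, Gm26885, held at most 2 counts in any library.

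Pim2, on chromosome X (7878262 to 7883432, plus strand), had 22.0, 24.0 and 24.0 CPM with DMSO and 16.6, 17.1 and 22.5 CPM with forskolin. Libraries 4 and 5 were below every DMSO library, and library 6 was within their range. The log2 fold change was -0.32 ± 0.16 (SE; edgeR adjusted p = 0.276). Without library 6 it was -0.49 ± 0.11 (edgeR adjusted p = 0.0181), a level 0.713 times that of the DMSO group, and with library 6 as the only forskolin library it was -0.01 ± 0.15 (edgeR adjusted p = 0.971). Libraries 4 and 5, where Pim2 was low, held 64.6% and 69.0% of the DMSO mean in summed neuron markers, while library 6 held 103% in sum although 6 of the 12 markers were below every DMSO library there; the part of neuron content in the Pim2 values was not tested.

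Pim3, on chromosome 15 (88862186 to 88865726, plus strand), had 20.2, 18.4 and 16.7 CPM with DMSO and 24.9, 17.9 and 15.4 CPM with forskolin. Library 4 was above all DMSO libraries, library 6 below all of them, and library 5 between. The log2 fold change was 0.07 ± 0.20 (SE; edgeR adjusted p = 0.849; 95% interval -0.40 to 0.55). Pim3 had the highest GC content of the 8 genes, 61.9%, and its fold change moved most under a correction for GC content. With each library's trend on GC removed, it had 15.7, 14.1 and 14.5 CPM with DMSO and 27.2, 21.1 and 23.1 CPM with forskolin, with no overlap, and a log2 fold change of 0.69 ± 0.13 (SE; edgeR unadjusted p = 0.00155, adjusted p = 0.206).

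Differences between the PIM genes were not tested. Of 14 genes of JAK and STAT signalling and PIM substrates, none was called, 3 were higher and 1 lower at an unadjusted p under 0.05, and the median log2 fold change was 0.03. Akt1s1, which encodes the mTORC1 inhibitor PRAS40, had the smallest p, with 47.1, 50.1 and 40.7 CPM with DMSO and 26.3, 24.2 and 16.5 CPM with forskolin (log2 fold change -1.04 ± 0.19 (SE); edgeR adjusted p = 0.0605). Its 3 forskolin libraries, library 6 included, were below all DMSO libraries; its GC content was 60.7%.

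**Figure D3:**
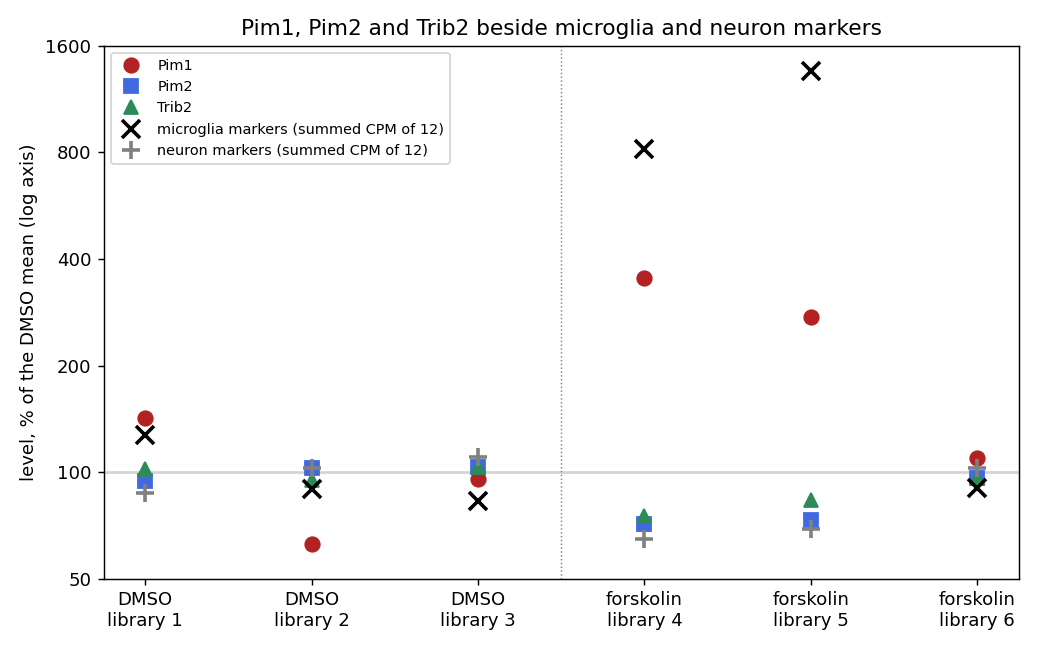
Levels of Pim1, Pim2 and Trib2 and the summed CPM of 12 microglia and 12 neuron markers are plotted for each library as a percentage of the DMSO mean, on a log axis. In libraries 4 and 5 Pim1 stood at 354% and 274% and the microglia markers at 819% and 1357%, while Pim2, Trib2 and the neuron markers lay below 100%; in library 6 all 5 lay between 90.4% and 110%.

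Trib1, on chromosome 15 (59648350 to 59657099, plus strand), had 23.1, 16.9 and 17.7 CPM with DMSO and 20.9, 25.3 and 20.2 CPM with forskolin. All forskolin libraries were above DMSO libraries 2 and 3, but DMSO library 1 exceeded libraries 4 and 6. The log2 fold change was 0.20 ± 0.17 (SE; edgeR adjusted p = 0.507; 95% interval -0.21 to 0.61). Without DMSO library 1 it was 0.38. DMSO library 1 was also the highest of its group in Fos, given above, and in the summed microglia markers (35.3 CPM) and endothelial and mural markers (100.4 CPM). It was the lowest of its group in the share of mitochondrial ribosomal RNA (14.0%). The part of these differences in the Trib1 values was not tested.

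Trib2, on chromosome 12 (15791727 to 15816922, minus strand), had 97.9, 90.9 and 98.9 CPM with DMSO and 72.0, 80.1 and 92.5 CPM with forskolin. Libraries 4 and 5 were below all DMSO libraries and library 6 was not. The log2 fold change was -0.23 ± 0.12 (SE; edgeR adjusted p = 0.303). Without library 6 it was -0.35 ± 0.09 (edgeR adjusted p = 0.0319), and with library 6 as the only forskolin library it was -0.01 ± 0.13 (edgeR adjusted p = 0.960). Like Pim2, Trib2 was low in the 2 libraries with a low neuron marker sum and not in library 6, where 6 of the 12 neuron markers were below every DMSO library; the part of neuron content in the Trib2 values was not tested. The microRNA gene Mir6387 lies within Trib2 on the same strand and held at most 3 counts in any library.

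Of 12 partners and targets of TRIB proteins, none was called. The median log2 fold change was -0.19, 10 of 12 were negative, where 48.2% of all tested genes were, and 3 were lower at an unadjusted p under 0.05. The neuron markers, 9 of 12 of them negative with a median of -0.45, lay to the same side, and their part in these values was not tested. Akt1, whose product TRIB proteins can bind, had the smallest p. It had 120, 117 and 117 CPM with DMSO and 91.1, 88.6 and 78.7 CPM with forskolin (log2 fold change -0.45 ± 0.10 (SE); edgeR adjusted p = 0.0920), and library 6 was the lowest. Its GC content was 59.7%.

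The relatives of the 8 genes gave no call either. Of 7 relatives (Sgk2, Sgk3, Plk1, Plk4, Plk5, Trib3 and Stk40), 6 passed the filter on low counts and 0 were called, with 2 higher at an unadjusted p under 0.05. Sgk3, an endosomal relative of SGK1, had a mean of 7.10 ± 0.952 CPM with DMSO and 11.5 ± 2.64 CPM with forskolin (SD, n = 3; log2 fold change 0.70 ± 0.22 (SE); edgeR adjusted p = 0.158). All 3 forskolin libraries of Sgk3 lay above the DMSO libraries with TMM scaling, which held for none of the 8 genes and for 10.3% of tested genes. With other scaling it also held for Sgk1 (upper-quartile factors), or for Sgk1, Pim1, Pim3 and Trib1 (GC trend removed). Its GC content, 38.9%, was below that of each of the 8, which ran from 48.0 to 61.9%.

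**Figure D4:**
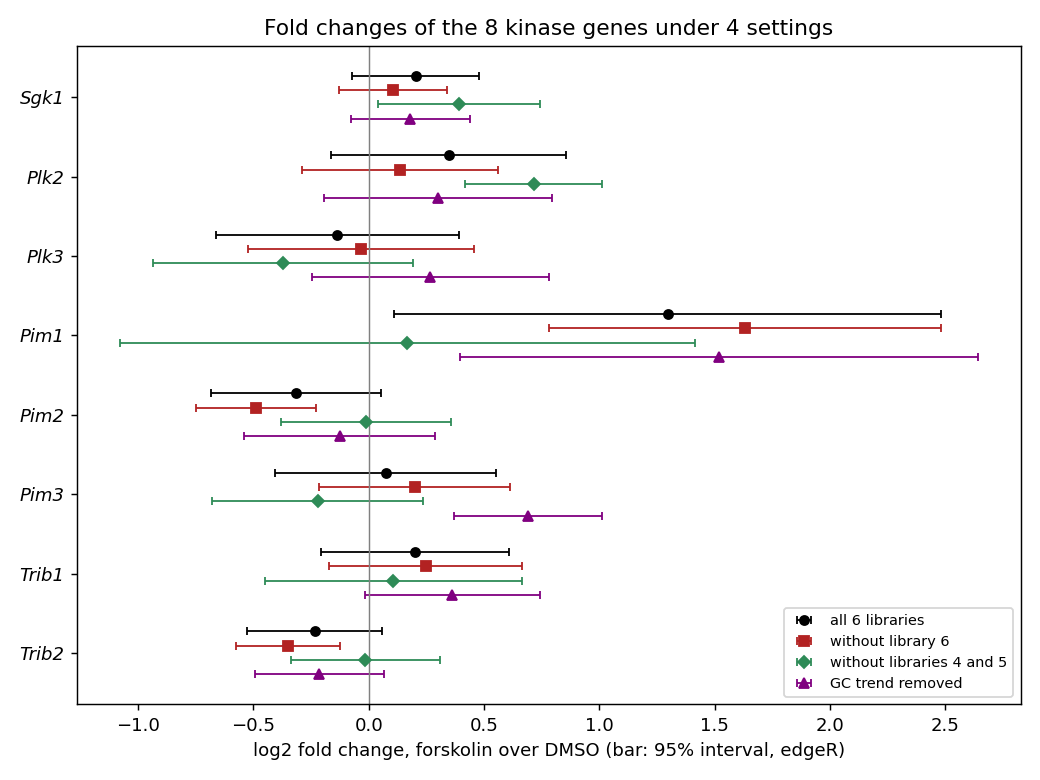
Points are log2 fold changes of forskolin over DMSO (x axis) with edgeR's 95% intervals for each of the 8 genes, with all 6 libraries, without library 6, without libraries 4 and 5, and with the GC trend removed. The estimate of Plk2 was 0.13 without library 6 and 0.71 without libraries 4 and 5, whereas that of Pim1 was 1.63 and 0.17, and that of Pim3 was 0.69 with the GC trend removed against 0.07 without the correction.

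With libraries 4 and 5 as the forskolin group, edgeR called 3 of the 8: Pim1 was higher, and Pim2 and Trib2 were lower. In that comparison 16.5% of tested genes were called higher and 17.1% lower. All 6 libraries with limma's library quality weights gave the same 3 calls (adjusted p = 0.00934 for Pim1, 0.0115 for Pim2 and 0.0369 for Trib2), beside the shares of all genes given above. With library 6 alone against the DMSO group, the spread of the treated group is assumed and the test has less power, so that its count of calls cannot be set against the 3 above; edgeR called 0 of the 8, where 0.0354% of tested genes were called higher and 0.519% lower. At an unadjusted p under 0.05 there were 2, both higher, where 3.77% of tested genes were higher at that level and 2524 of 16950 passed it in either direction. These were Plk2, given above, and Sgk1 (log2 fold change 0.39 ± 0.14 (SE); edgeR unadjusted p = 0.0350, adjusted p = 0.302).

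Scaling also changed how the groups lay. With library size alone the forskolin libraries of 1 gene, Pim2, were all below the DMSO libraries, where 20.6% of tested genes were, and with upper-quartile factors those of 1 gene, Sgk1, were all above, where 13.6% were. With the GC trend removed, the forskolin libraries of 4 genes, Sgk1, Pim1, Pim3 and Trib1, were all above the DMSO libraries, where 7.7% of tested genes showed that pattern; edgeR then called 0 of the 8 and 0 of all tested genes. At an unadjusted p under 0.05 there were 2 of the 8, Pim1 and Pim3, both higher, where 7.02% of tested genes were higher at that level and 1955 passed it in either direction. For Sgk1 the margin was 52.6 against 52.5 CPM, and for Pim1 it was 1.88 against 1.87. For Trib1 the margin was 21.4 against 21.3 CPM. Only for Pim3, at 21.1 against 15.7 CPM, was the gap wider than the spread of the DMSO libraries. Plk3 was positive after this correction, with a log2 fold change of 0.27 ± 0.21 (SE; edgeR adjusted p = 0.571).

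The genes whose levels ran most closely with each of the 8 over the 6 libraries were found by Pearson's r of log2 CPM among 9572 genes with a mean of at least 10 CPM. All values come from the same 6 libraries, and with so few a high r is found by many genes. For Sgk1 they were Rpl7 (r = 0.985) and Vwa9 (0.977), and for Plk2 they were Rrp8 (0.988) and Tmem128 (0.974). Dusp15 (0.957) and Ccdc85a (0.940) were nearest to Plk3. Pim1 ran with Col11a1 (0.996) and Tmem260 (0.996), and 219 genes exceeded 0.95 with it. Pim2 ran with Wipf3 (0.9998) and Tm7sf2 (0.999), and 721 genes exceeded 0.95. Pim3 was nearest to Afap1 (0.992) and Vcl (0.990), Trib1 to Tstd2 (0.998) and B3glct (0.984), and Trib2 to Ctdnep1 (0.994) and Gatsl2 (0.993). Among the 8, Pim1 and Pim2 thus had the profiles shared by most genes, and Plk3, with 1 gene over 0.95, the profile shared by fewest.

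None of the 8 genes is among the 132 genes of the authors' deposited table, which compares forskolin with DMSO. In the authors' deposited table the smallest log2 fold change is 1.501 and the smallest mean normalised count is 126. All fold changes in the authors' deposited table are positive, whereas those fitted here for Plk3, Pim2 and Trib2 were negative. The log2 fold change fitted here for Pim1, 1.30 with all 6 libraries, lay on both sides of that smallest value over the settings tried, from 0.17 to 1.80. The largest adjusted p in the authors' deposited table, by the authors' test, is 0.000623. None of the 8 reached that value here. The smallest DESeq2 adjusted p was 0.0824, for Pim1 (log2 fold change 1.31). Over all settings the smallest adjusted p was 0.00934, for Pim1 with limma's library quality weights. The mean count of Pim1 over the 6 libraries, divided by DESeq2 size factors, was 88.6 and thus below the smallest mean of the authors' deposited table; those of the other 7 genes, from 263 for Plk3 to 3369 for Plk2, were above it.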

How the data were processed

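The 6 libraries were grouped by their labels. The authors deposited 1 table of raw counts by gene symbol, all whole numbers; Salmon, DESeq and GRCm38 are named, without their roles, in the submitters' processing notes. Strand setting and annotation are not given in the sources used here. A second table, deposited by the authors, compares the groups and gives, per its header, a mean of normalised counts (a signal), log2 fold changes, a test statistic (a score) and p-values. Genes were kept with filterByExpr (minimum count 10, minimum total 15), scaled with TMM and tested with edgeR 4.0.16 (R 4.3.3; limma 3.58.1 and DESeq2 1.42.0 as alternatives), after a check on simulated data. The model held the group only. Standard errors are the absolute log2 fold change over the square root of F. Log2 CPM used a prior count of 2. GC content and length are those of the longest GENCODE M21 transcript; 1 listed symbol, Cop1, was read as Rfwd2. The GC correction fitted a lowess curve (span 0.3) per library to log2 CPM centred on each gene's mean; 96.9% of tested genes had a GC value. Named genes are the 8 kinase genes, Fos and Nr4a1, the called genes of each pathway list or else its smallest p, and the 2 nearest profiles per gene. One gene that this rule names is not reported here. The marker gene Rbfox3 was named outside this rule after its values were seen. Tctex1d4, Gm26885 and Mir6387 were also named outside it, because they overlap members in the annotation. The members and lists were chosen with earlier results of these data known.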

Additional observations from a re-analysis of the deposited data

How the results depend on the processing

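The count of called kinase genes, 0, was 3 with limma-voom with library quality weights and 0 in the other settings that kept all 6 libraries; it ranged from 0 to 3 when each library was left out, the 3 coming without library 6. The number of kinase genes with non-overlapping groups, 0, was 1 with library size alone (Pim2, below), 1 with upper-quartile factors (Sgk1, above) and 4 with the GC trend removed (all above). The same patterns were found in 20.6%, 13.6% and 7.7% of tested genes. After the GC correction the margins were narrow for Sgk1, Pim1 and Trib1. Over all tested genes the 245 edgeR calls (28 higher, 217 lower) became 1775 with DESeq2 (796 higher, 979 lower), 6795 with quality weights (3403 higher, 3392 lower), 137 with RLE factors (24 higher, 113 lower), 102 with upper-quartile factors (19 higher, 83 lower), 0 with the GC trend removed (1955 at an unadjusted p under 0.05) and 94 without libraries 4 and 5, and ranged from 0 to 5698 over single libraries left out. The 5698 came without library 6; leaving out any other single library gave 0, with 1945 to 3216 genes at an unadjusted p under 0.05. Pim3 changed direction with library size alone (-0.034), without DMSO library 3 or forskolin library 4 (range over single libraries left out -0.15 to 0.20) and without libraries 4 and 5 (-0.22), and Plk3 did with the GC trend removed (0.27); the cause was not tested. Sgk1, Plk2, Pim1, Pim2, Trib1 and Trib2 kept their direction in all 16 alternatives. Over these, the log2 fold change ran from 0.09 to 0.39 for Sgk1, 0.09 to 0.71 for Plk2, 0.17 to 1.80 for Pim1, -0.49 to -0.01 for Pim2, 0.08 to 0.38 for Trib1 and -0.35 to -0.01 for Trib2. Library size alone moved the median of all tested genes from 0.02 to -0.09. No paired analysis was possible because no library number in the labels occurs in both groups. For Pim1, with 28 to 245 counts per library, counting error adds to the spread between libraries.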
